A study of Populus qamdoensis and Populus schneideri with 18 samples.

Results

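The deposited expression table held 39194 genes, of which 37562 carried identifiers of the *P. yunnanensis* annotation (Pyun genes) and 1632 were named as new genes, found outside that annotation. The 200 new genes with the highest mean FPKM over all 18 libraries are described here, by level, by difference between the species and by difference between the films. FPKM divides the fragments of a gene by its length and by the total mapped in that library. The mean FPKM chose the members, so the levels are a description. The species and film differences were not used in this choice, but how the new genes entered the table is not given. A new gene is written below as newGene and its number, without the species name that precedes it in the table.

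Leaves of cuttings of *P. qamdoensis* and *P. schneideri*, both poplars, were sampled after growth under a blue film (BF), a green film (GF) or a translucent colorless film (WF), with 3 libraries in each of the 6 groups. The *P. qamdoensis* plants came from a natural forest and were propagated as cuttings. The labels of *P. schneideri* give only the light color, from which its films were inferred, and no source used here gives the origin of its plants or how long they stood under film. Reads of both species were compared to the genome of *P. yunnanensis*, which neither group of plants belongs to. No plant was without a film, and neither species is a control of the other. Where the 3 libraries of a group are not from separate plants, p-values measure only the spread between libraries. For *P. qamdoensis*, leaves were taken from 3 plants per treatment.

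A new gene in such a table is usually a transcript that was put together from aligned reads at a place where the annotation has no gene. It may be a protein-coding gene that the annotation missed, a non-coding RNA, a piece of a neighboring gene or a transcribed repeat, and these need sequence or position to be told apart. When reads of one species are aligned to another, a gene that is lost, diverged or duplicated in the sequenced species can also read low or high without any change in transcription per copy. No sequence, position, strand or exon structure of the new genes was used here, so no member could be assigned to any of these kinds, and reads shared with a near-identical copy or an overlapping gene could not be recognised.

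The 200 members had mean levels between 4.09 and 819 FPKM, with a median of 8.94 FPKM and quartiles of 5.84 and 17.6 FPKM. Of them, 89 had a mean of at least 10 FPKM and 8 of at least 100 FPKM. The other 1432 new genes had a median of 0.383 FPKM. At the limit of the choice, newGene_834 (4.12 FPKM) and newGene_3125 (4.09 FPKM) were the last members, and newGene_2571 and newGene_1888 (both 4.08 FPKM) were the first new genes left out. The members held 1.00% of all FPKM, and all new genes 1.20%. Per library the members' share was 0.811% to 1.20% in *P. qamdoensis* (median 1.03%), against 0.834% to 1.15% in *P. schneideri* (median 0.992%), so the ranges overlapped. The expression was uneven: 2 members held 28.4% of the members' FPKM and 6 members held 49.5%.

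The highest member, newGene_3682, ranked 43 among all genes. It had 785, 822 and 379 FPKM under BF, 431, 661 and 503 FPKM under GF and 403, 1383 and 1422 FPKM under WF in *P. qamdoensis*. In *P. schneideri* it had 478, 454 and 694 FPKM under BF, 685, 1326 and 904 FPKM under GF and 1203, 974 and 1239 FPKM under WF. BF and WF overlapped in *P. qamdoensis*, whose 3 WF libraries held both a low and the highest values, and did not overlap in *P. schneideri*, where BF was lower. The second, newGene_561, was steadier, at 525 to 927 FPKM (median 797 FPKM) in *P. qamdoensis* against 613 to 1051 FPKM (median 878 FPKM) in *P. schneideri*. The third was newGene_161, with a mean of 483 FPKM. The fifth, newGene_1749, was even over species and films, with 256 ± 26.8 FPKM under BF, 234 ± 10.1 FPKM under GF and 219 ± 22 FPKM under WF in *P. qamdoensis*, against 253 ± 14.7, 241 ± 17.8 and 219 ± 11.8 FPKM in *P. schneideri* under the same films (SD, n = 3 each). The other members among the highest 10 were newGene_3549, newGene_3378, newGene_1969, newGene_3521, newGene_3701 and newGene_308, with means of 296, 186, 127, 102, 81.7 and 76.2 FPKM. No annotation was used for any of the 10, so they are known here by their levels only.

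With the leaf label in mind, 2 chloroplast genes were read over the 18 libraries. Protochlorophyllide reductase, a chlorophyll synthesis enzyme (Pyun01G038270), had 8.24 to 43.8 FPKM. TIC 55, of the inner chloroplast membrane (Pyun06G024870), had 35.7 to 106 FPKM. No other tissue stands beside them, so these values cannot tell leaf from another green tissue. The number of fragments behind each value is not given in the table, so no counting error is stated.

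One library stood apart, and the new genes showed it more than other genes did. The *P. qamdoensis* library BF replicate 1 had a median correlation of 0.635 with the other *P. qamdoensis* libraries across the members, against 0.887 to 0.947 for those other libraries. Across all genes it had 0.866, against 0.942 to 0.980. Genes, not samples, are the points of these correlations, and they are not independent. In this library 134 of 200 members lay outside the range of the other 8 *P. qamdoensis* libraries (67.0%), 36 above and 98 below, and 54.8% of Pyun genes of similar level did so. In the other 17 libraries 10% to 33.0% of the members lay outside their species' range. With more than a 4-fold step beyond that range on the FPKM + 1 scale, there were 1 member above and 26 below in BF replicate 1 (13.5%), against 2.17% of Pyun genes of similar level, and at most 0.5% of members in any other library.

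**Figure D1:**
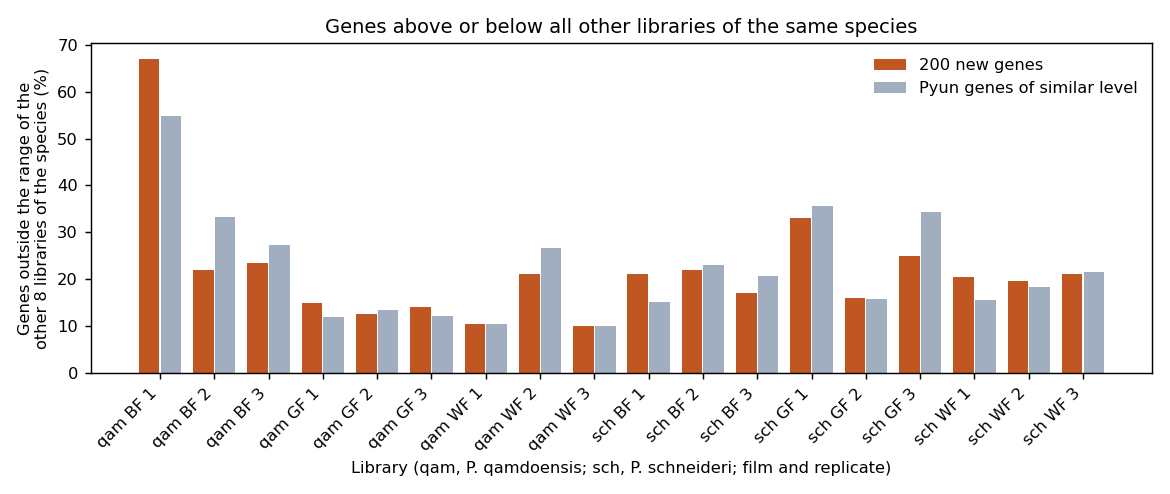
Share of genes (%) whose FPKM in a library lay above or below all other 8 libraries of the same species, for each of the 18 libraries, with the 200 new genes in orange and 16117 Pyun genes of similar level in gray. The bar of *P. qamdoensis* BF replicate 1 reaches 67.0% for the new genes and 54.8% for the Pyun genes, and the other 17 bars of the new genes lie between 10% and 33.0%.

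Single members showed what this meant in expression. The members named for this library, here and where results are given without it, were picked with their values already known. newGene_3064 was listed at 0 in BF replicate 1 and had 59.8 to 74.9 FPKM in the other 8 libraries. newGene_3549, the fourth highest member, had 21.0 FPKM there, against 321 to 407 FPKM in the other 8. Its neighbor in the numbering moved the other way, since newGene_3550 had 434 FPKM in BF replicate 1 and 13.1 to 64.5 FPKM in the others. newGene_2717 was listed at 0, against 13.8 to 29.0 FPKM. In all, 20 members were listed at 0 in this library, 16 of them above 1 FPKM in all of the other 8, while the other 17 libraries had 4 to 7 members at 0 each.

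A minority of these members fell within the *P. schneideri* range in this library. newGene_2297 had 5.75 FPKM in BF replicate 1, 15.1 to 48.5 FPKM in the other *P. qamdoensis* libraries and 4.25 to 8.88 FPKM in *P. schneideri*. newGene_1407 had 24 FPKM there, above both the 1.94 to 5.77 FPKM of the other *P. qamdoensis* libraries and the 12.4 to 17.5 FPKM of *P. schneideri*. newGene_1627 was listed at 0 there, as in all *P. schneideri* libraries. newGene_1408, however, was listed at 0 in BF replicate 1 as in every other *P. qamdoensis* library, while *P. schneideri* had 26.2 to 35.0 FPKM. Of the 134 members outside the range, 17 fell into the *P. schneideri* range. Of the 16117 Pyun genes of similar level, 1914 lay outside the range in this library and within that of *P. schneideri*. In BF replicates 2 and 3 of *P. qamdoensis*, 20 and 13 of the 200 members did so, where 22% and 23.5% of the members lay outside the range. Such values were therefore also seen in other libraries and among Pyun genes. Why BF replicate 1 stood apart was not tested. Results are given with and without this library.

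Between the species, 47 of the 200 members passed the test, 20 higher and 27 lower in *P. qamdoensis*. The test was limma on log2(FPKM + 1) with Benjamini-Hochberg adjustment over all genes, and a call needed a fold change of at least 1.5 with an adjusted p below 0.01, each film weighted equally. The call rate was 23.5% for the members, against 11.1% for all 24273 genes tested. By direction, 5.48% of all genes were called higher and 5.63% lower. A high call rate was not particular to the highest new genes, since 161 of the 624 other new genes that passed the filter were called (25.8%). All 200 members passed the filter of a mean of at least 0.5 FPKM over 18 libraries, which their choice ensures. Such a mean can come from one species alone, for members and Pyun genes alike. Entry into the table may differ, however. If the new genes were assembled from these reads, a gene may be listed only through the species where it is high. Pyun genes come from the existing annotation, so the sets may not be alike in this respect.

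Without *P. qamdoensis* BF replicate 1, 62 members were called (31.0%), 33 higher and 29 lower, against 12.8% of all genes, 6.68% higher and 6.17% lower. Of the 47 members, 46 were also called without it. The 16 called only without it were 13 higher and 3 lower, and they included newGene_3064, newGene_3065, newGene_3378 and newGene_1421. Leaving out each of the 18 libraries in turn, 42 of the 47 members were called every time. The remaining 5 were newGene_3550, called in 7 of the 18 fits, newGene_1924 in 4, newGene_2564 in 12, newGene_2067 in 13 and newGene_256 in 14.

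The members' higher call rate was also seen at matched level. Among 16117 Pyun genes with means within the members' range, 8.29% were called, or 9.18% when weighted to the members' 4 level classes, each holding 50 members. In the lowest class, 4.09 to 5.84 FPKM, 17 members were called (34%), against 12.0% of the Pyun genes. In the next class, up to 8.94 FPKM, 15 were called (30.0%), against 10.1%. Between 8.94 and 17.6 FPKM the count was 8 (16%), against 8.18%. Above 17.6 FPKM it was 7 (14%), against 6.50%. Without BF replicate 1 the members stood at 40.0%, 34%, 26.0% and 24% from the lowest to the highest class, against 13.8%, 11.6%, 9.54% and 7.46% of the Pyun genes. These shares are counts side by side, with no test of the list as a whole. Matching by level does not remove a difference in how new genes and Pyun genes came to be listed.

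**Figure D2:**
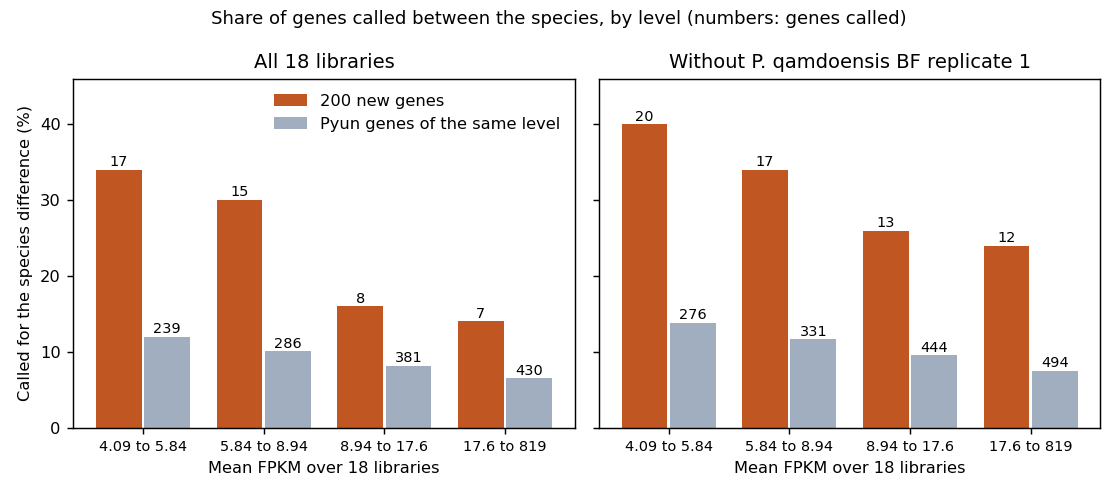
Share of genes called for the species difference (%) in 4 classes of mean FPKM over 18 libraries, with the new genes in orange left of the Pyun genes of the same level in gray, from all 18 libraries (left) and without *P. qamdoensis* BF replicate 1 (right). The number above a bar is the count of genes called, from 17 of 50 members in the lowest class to 7 of 50 in the highest with all libraries. The orange bar is the higher of the pair in every class of both panels.

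The size of the differences set the members further apart than the call rate. A log2 difference of at least 2 in either direction was found for 21 of 200 members (10.5%), against 1.19% of all genes and 1.17% of Pyun genes weighted by level. The median absolute log2 difference was 0.36 for the members and 0.17 for level-weighted Pyun genes. The direction was balanced: the median log2 difference of the members was -0.05, and that of all genes -0.04. The 9 libraries of one species did not overlap the 9 of the other for 30 members (15.0%), against 5.82% of all genes. Without BF replicate 1 this held for 49 members (24.5%), against 9.36% of all genes. At an unadjusted p below 0.05 there were 99 members (49.5%), against 40.3% of all genes.

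Tested under single films, 29 members were called under BF, 27 under GF and 34 under WF (14.5%, 13.5% and 17%), against 5.52%, 4.69% and 5.87% of all genes. Under all 3 films 23 members were called (11.5%), against 2.43% of all genes and 1.77% of Pyun genes of similar level. Without *P. qamdoensis* BF replicate 1 the counts under single films were 48, 50 and 50 (24%, 25% and 25%), against 7.82%, 7.9% and 9.54% of all genes. The counts under GF and WF moved as well, since the spread of all groups is estimated together.

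**Figure D3:**
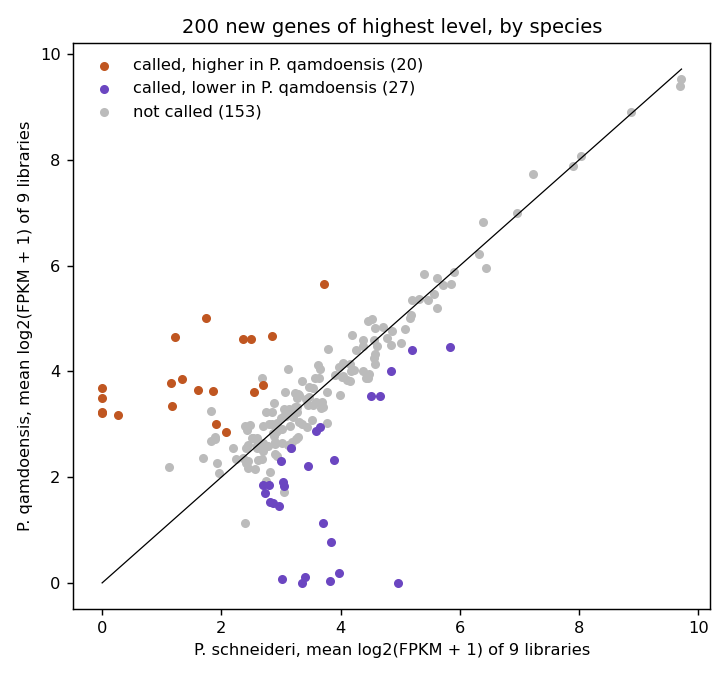
Mean log2(FPKM + 1) of 9 libraries in *P. qamdoensis* (vertical axis) against *P. schneideri* (horizontal axis) for the 200 new genes, with the line of equal levels. The 20 members called higher (orange) and the 27 called lower in *P. qamdoensis* (purple) leave the line mainly at low to middle levels, and groups of points lie on or near 0 on either axis. The 153 members not called are gray.

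Members listed at 0 in all 9 libraries of one species numbered 6 (3.00%), 2 in *P. qamdoensis* and 4 in *P. schneideri*, against 0.062% of Pyun genes of similar level and 7.85% of the other new genes that passed the filter. Above 0 in all 18 libraries were 172 members (86.0%), against 99.1% of those Pyun genes. Of the 28 members with a 0, 14 were at 0 only in *P. qamdoensis* BF replicate 1, and without that library 186 members (93.0%) were above 0 throughout, against 99.6% of the Pyun genes. A value of 0 says only that the gene is listed at 0, since the number of fragments behind the values is unknown. No fold change is given against a species listed at 0.

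Of the members called lower in *P. qamdoensis* without overlap, the 6 with the largest log2 differences were newGene_1408, newGene_2033, newGene_3195, newGene_2864, newGene_528 and newGene_1793. newGene_1408 was listed at 0 in all 9 *P. qamdoensis* libraries, against 26.2 to 35.0 FPKM (median 29.9 FPKM) in *P. schneideri* (limma adjusted p = 1.54e-16). newGene_2864 was also listed at 0 in every *P. qamdoensis* library, against 3.47 to 14 FPKM (median 10 FPKM) in *P. schneideri* (limma adjusted p = 1.06e-09). The 2 genes differed in steadiness, as newGene_1408 varied little over films and newGene_2864 had its lowest value in 1 GF library.

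newGene_2033 was listed at 0 in 7 of the 9 *P. qamdoensis* libraries and reached 0.134 FPKM at most, against 10.2 to 15.8 FPKM (median 13.3 FPKM) in *P. schneideri*. The log2 difference was -3.79 ± 0.0816 (SE, limma adjusted p = 1.81e-14). Its neighbor in the numbering, newGene_2032, had 13.7 to 29.5 FPKM (median 24.6 FPKM) in *P. qamdoensis*, against 16.8 to 21.6 FPKM (median 19.9 FPKM) in *P. schneideri*, and its groups overlapped. newGene_3195 had 0 to 1.82 FPKM (median 0.0134 FPKM) in *P. qamdoensis*, against 9.87 to 18.7 FPKM (median 15.2 FPKM) in *P. schneideri*. Its highest *P. qamdoensis* value was that of BF replicate 1, and the other 8 were at most 0.0659 FPKM. The log2 difference was -3.78 ± 0.175 with this library and -3.95 without it (SE of the first, limma adjusted p = 1.84e-10).

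newGene_528 had 0 to 0.198 FPKM (median 0.0935 FPKM) in *P. qamdoensis*, against 8.24 to 11.4 FPKM (median 9.80 FPKM) in *P. schneideri*, a log2 difference of -3.28 ± 0.0812 (SE, limma adjusted p = 1.05e-13). newGene_1793 was detected in every library, with 0.184 to 1.42 FPKM (median 0.548 FPKM) in *P. qamdoensis*, against 10 to 18.9 FPKM (median 12.7 FPKM) in *P. schneideri*. Its log2 difference was -3.06 ± 0.152 (SE, limma adjusted p = 4.83e-10). The *P. qamdoensis* medians of these 6 genes lay between 0 and 0.548 FPKM.

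The 6 members named for the other direction, higher in *P. qamdoensis*, were newGene_1079, newGene_2552, newGene_2296, newGene_1704, newGene_2414 and newGene_1514. Not all of them were at or near 0 in *P. schneideri*. newGene_1079 had 4.08 to 14.9 FPKM (median 13.5 FPKM) in *P. qamdoensis* and was listed at 0 in all 9 libraries of *P. schneideri* (limma adjusted p = 1.11e-10). newGene_1704 had 0.745 to 12.6 FPKM (median 10.1 FPKM) in *P. qamdoensis* and was listed at 0 throughout *P. schneideri* (limma adjusted p = 2.80e-07). newGene_2414 had 4.17 to 13.6 FPKM (median 9.90 FPKM) in *P. qamdoensis* and was likewise listed at 0 in *P. schneideri* (limma adjusted p = 3.95e-09). BF replicate 1 gave the lowest *P. qamdoensis* value of all 3 genes, for newGene_2414 by a margin of 4.17 against 4.20 FPKM.

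newGene_1627 was the fourth member listed at 0 in all of *P. schneideri*. It had 11.1 to 17.7 FPKM in 8 *P. qamdoensis* libraries and was listed at 0 in BF replicate 1, so the groups overlapped only through that library. It passed the test with all libraries (limma adjusted p = 8.36e-06).

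newGene_2296 had 13.5 to 58.3 FPKM (median 30.1 FPKM) in *P. qamdoensis*, against 0.846 to 5.18 FPKM (median 2.33 FPKM) in *P. schneideri*, a log2 difference of 3.27 ± 0.243 (SE, limma adjusted p = 6.33e-08). newGene_2552 had 19.7 to 55.6 FPKM (median 21.3 FPKM) in *P. qamdoensis*, against 0.604 to 1.87 FPKM (median 1.71 FPKM) in *P. schneideri*, a log2 difference of 3.42 ± 0.170 (SE, limma adjusted p = 4.76e-10). newGene_1514 had 10.1 to 32.7 FPKM (median 12.1 FPKM) in *P. qamdoensis*, against 1.10 to 2.22 FPKM (median 1.59 FPKM) in *P. schneideri*, a log2 difference of 2.52 ± 0.159 (SE, limma adjusted p = 8.65e-09). For newGene_2552 and newGene_1514 the highest value was again BF replicate 1. The other 8 *P. qamdoensis* libraries stood at 19.7 to 25.4 FPKM and 10.1 to 13.4 FPKM, and all 12 members named by this rule were called in every leave-one-out fit.

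**Figure D4:**
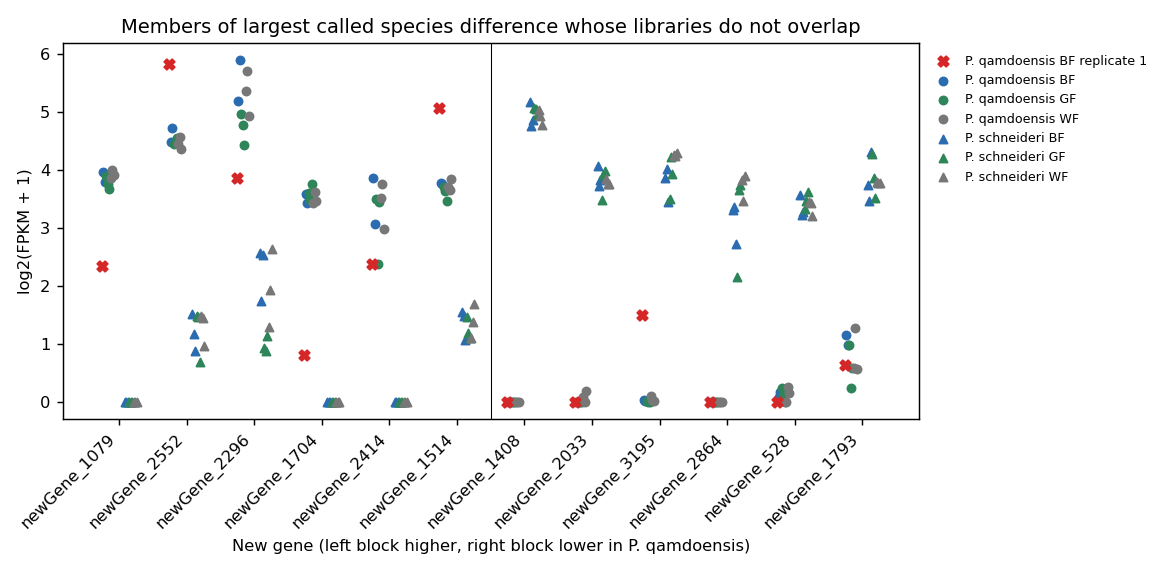
log2(FPKM + 1) of 12 new genes in every library, 9 of *P. qamdoensis* (circles) left of 9 of *P. schneideri* (triangles) for each gene, colored by film, with *P. qamdoensis* BF replicate 1 as a red cross. The 6 genes of the left block are higher and the 6 of the right block lower in *P. qamdoensis*, with no overlap between the species for any gene, and the red cross leaves its group upward for newGene_2552, newGene_1514 and newGene_3195 and downward for newGene_1079, newGene_1704 and newGene_2296.

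Species difference and number were compared for the 15 pairs of members with consecutive numbers, because assembled genes are often numbered along a chromosome; no source used here says how these were numbered. Both members were called in 3 pairs, each time in the same direction. These were newGene_1121 with newGene_1122 and newGene_2296 with newGene_2297, higher in *P. qamdoensis*, and newGene_1407 with newGene_1408, lower. newGene_2297 had 5.75 to 48.5 FPKM (median 27.7 FPKM) in *P. qamdoensis*, against 4.25 to 8.88 FPKM (median 6.36 FPKM) in *P. schneideri*. In 5 pairs 1 of the 2 was called, and in 11 of the 15 pairs the sign of the difference was shared. For scale, 23.5% of all 200 members were called, and 92 had a positive and 108 a negative difference. The pairs are not independent, as newGene_247 and newGene_1705 each sit in 2 of them. No other pairs were counted, so whether neighbors in number share a species difference was not tested.

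The members also varied more between libraries of one group. Without BF replicate 1, the median SD of log2(FPKM + 1) within a group was 0.238 for the members and 0.183 for Pyun genes of similar level. An SD of at least 1 was found for 3 members (1.5%), against 0.391% of those Pyun genes. The most variable, newGene_2760, was listed at 0 in 9 libraries and had 3.50 to 17.5 FPKM in the other 9, with both kinds in each species. newGene_3158 ranged over 0.0635 to 124 FPKM, and its highest value was 1 BF library of *P. qamdoensis*. The third was newGene_1853, described below with the photosynthesis genes.

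No member passed the test between films. This held for BF against WF, GF against WF and BF against GF in each species and for the 3 interactions of species and film, by limma at the same thresholds. At these thresholds the study itself reported many genes in each film comparison of *P. qamdoensis*, by a test it does not name. Why so few genes were called here was not tested, and the near absence of calls does not show that a film response is absent. Of all genes, 0.00414% were called for BF against WF in *P. qamdoensis*, 0.0252% for BF against WF and 0.042% for GF against WF in *P. schneideri*, and 0% in the other 3 comparisons. For the interactions the background was 0.00824% for BF against WF, 0.00412% for GF against WF and 0% for BF against GF. The members tested were 194 in *P. qamdoensis* and 195 in *P. schneideri*, those with a mean of at least 0.5 FPKM in that species, and 200 for the interactions. BF against WF, GF against WF and BF against GF share libraries, so the comparisons are not independent of each other. Leaving out 1 library gave calls in a few cases: newGene_247, newGene_2067 and newGene_2930 for BF against WF in *P. qamdoensis* without BF replicate 2, newGene_247 and newGene_2067 for BF against GF and newGene_247 for its interaction without the same library, and newGene_2390 as given below. Of these, newGene_247 was named after its values were seen. It had 21.3, 2.36 and 27.1 FPKM under BF, against 0.564, 0 and 0.478 FPKM under GF in *P. qamdoensis*, without overlap, and the BF library left out is the one of 2.36 FPKM. Its log2 difference was 3.28 ± 0.684 with all libraries (SE, limma adjusted p = 0.122) and 4.24 without that library (limma adjusted p = 0.000545).

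At an unadjusted p below 0.05 the members exceeded all genes by a few percentage points in the 6 film comparisons, and for the interactions only in GF against WF. In *P. qamdoensis* this level was reached by 42 members for BF against WF (21.6%, against 17% of all genes), 11 for GF against WF (5.67%, against 1.95%) and 45 for BF against GF (23.2%, against 19%). In *P. schneideri* it was reached by 38 for BF against WF (19.5%, against 15.6%), 29 for GF against WF (14.9%, against 12.1%) and 20 for BF against GF (10.3%, against 6.49%). Level-weighted Pyun genes gave 17.3%, 1.71% and 19.6% in *P. qamdoensis* and 15.7%, 11.6% and 6.16% in *P. schneideri* for the same comparisons. For the interactions, 20 members had such a p for BF against WF (10%, against 10.3% of all genes), 13 for GF against WF (6.50%, against 3.31%) and 20 for BF against GF (10%, against 9.92%).

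The median absolute log2 difference was largest in the comparisons that hold the outlying library. For BF against WF in *P. qamdoensis* it was 0.43 for the members with BF replicate 1 and 0.24 without it. For BF against GF it was 0.45 and 0.25. For GF against WF in *P. qamdoensis* it was 0.12, and in *P. schneideri* it was 0.18 for BF against WF, 0.17 for GF against WF and 0.14 for BF against GF. Without BF replicate 1 the counts at an unadjusted p below 0.05 were 52, 21 and 52 in *P. qamdoensis*, for BF against WF, GF against WF and BF against GF. These were 26.8%, 10.8% and 26.8% of the members tested, against 15.1%, 4.4% and 16.4% of all genes. The films did not overlap for 46, 24 and 47 members in these comparisons with all libraries (23.7%, 12.4% and 24.2%), against 19.3%, 12.6% and 22.9% of all genes. In *P. schneideri* they did not overlap for 50, 29 and 19 members (25.6%, 14.9% and 9.74%), against 26.4%, 18.2% and 9.56% of all genes. Except in the *P. qamdoensis* comparisons with BF, these shares were near or below those of all genes.

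Film differences were compared between the species on the 189 members tested in both. For BF against WF, 102 members had the same sign in both species (54.0%), 33 of them positive and 69 negative, and 63.0% of Pyun genes of similar level did. The shares were 56.6% against 55.5% for GF against WF and 63.0% against 61.1% for BF against GF. An unadjusted p below 0.05 in both species was found for 10, 3 and 4 members in these comparisons (5.29%, 1.59% and 2.12%), against 4.16%, 0.554% and 1.69% of the Pyun genes. Among the 10 for BF against WF, 2 were positive in both, 6 were negative in both and 2 had opposite signs.

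The member nearest to a call was newGene_2390, which was low under GF in both species. *P. schneideri* had 0.951, 2.21 and 2.86 FPKM under GF, against 13.5, 9.03 and 11.5 FPKM under WF, without overlap. The log2 difference was -2.08 ± 0.255 (SE, limma adjusted p = 0.0136). Without GF replicate 1 or without GF replicate 3 of *P. schneideri* it was called, with a limma adjusted p of 0.00928 and 0.00912. In *P. qamdoensis* it had 0.135, 0.563 and 0.363 FPKM under GF, against 4.67, 8.07 and 4.56 FPKM under WF, also without overlap, with a log2 difference of -2.30 ± 0.623 (SE, limma adjusted p = 1). Under BF it had 7.97, 0.464 and 0.511 FPKM in *P. qamdoensis*, where the high value is BF replicate 1, and 11.3, 8.83 and 6.97 FPKM in *P. schneideri*. Without that library the *P. qamdoensis* BF values lie with GF, and those of *P. schneideri* lie nearer to WF. The test of that difference between the species, the interaction for BF against GF, gave a log2 value of -0.76 with BF replicate 1 (limma adjusted p = 0.714) and -1.62 without it (limma adjusted p = 0.172).

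In *P. qamdoensis* the smallest p for a higher value under BF than WF belonged to newGene_2930. It had 7.08, 9.96 and 14.4 FPKM under BF, against 1.22, 0.558 and 1.51 FPKM under WF, a log2 difference of 2.43 ± 0.267 (SE, limma adjusted p = 0.0629), and 1.99, 2.61 and 2.21 FPKM under GF. In *P. schneideri* it had 4.17, 11.6 and 2.19 FPKM under BF, 7.34, 0.865 and 1.65 FPKM under GF and 2.31, 0.967 and 2.73 FPKM under WF, with overlap. newGene_2067 had the smallest p for BF against GF, with 32.5, 17.3 and 26.8 FPKM under BF, against 6.08, 4.61 and 5.62 FPKM under GF in *P. qamdoensis* (log2 difference 2.01 ± 0.220, SE, limma adjusted p = 0.0467). Neither was called with all libraries. Without *P. qamdoensis* BF replicate 2 both were, with an adjusted p by limma of 0.00913 for newGene_2930 and 0.000942 for newGene_2067, while without BF replicate 1 the values were 0.0165 and 0.025. The *P. schneideri* libraries of newGene_2067 overlapped, at 20.4, 28.8 and 26.8 FPKM under BF and 7.63, 11.9 and 35.0 FPKM under GF.

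newGene_161, described above by its level, had the smallest p for a lower value under BF. Its libraries had 309, 348 and 390 FPKM under BF, against 574, 537 and 552 FPKM under WF in *P. qamdoensis*, without overlap and with a log2 difference of -0.67 ± 0.149 (SE, limma adjusted p = 0.164). Its GF values were 633, 543 and 523 FPKM, close to WF. *P. schneideri* had 409, 461 and 374 FPKM under BF, against 541, 496 and 499 FPKM under WF, a log2 difference of -0.31 ± 0.211 (SE, limma adjusted p = 0.515).

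For GF against WF in *P. qamdoensis* the members of smallest p were newGene_2542, at 21.9, 22.1 and 23.1 FPKM under GF against 18.1, 18.3 and 18.4 FPKM under WF, and newGene_2436, at 6.19, 7.24 and 8.09 FPKM under GF against 10.5, 10.7 and 11.5 FPKM under WF. Both had a limma adjusted p of 1. In *P. schneideri* newGene_1382 had 15.3, 19.9 and 13.1 FPKM under BF, against 11.8, 9.94 and 9.60 FPKM under WF (limma adjusted p = 0.148). newGene_907 had 0.477, 1.57 and 1.02 FPKM under BF, against 2.24, 3.02 and 3.00 FPKM under WF (limma adjusted p = 0.106). newGene_901 had 5.23, 5.10 and 5 FPKM under GF, against 2.12, 2.20 and 3.24 FPKM under WF (limma adjusted p = 0.0733). In each of these 5 comparisons the 2 films did not overlap.

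**Figure D5:**
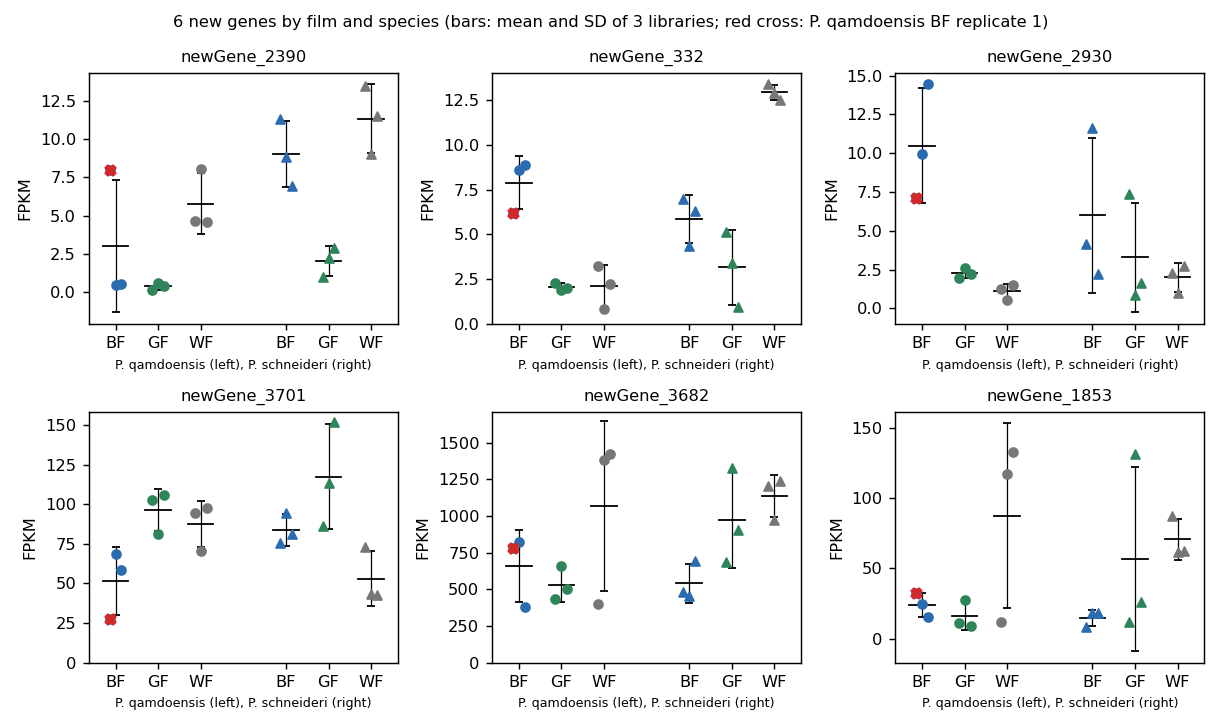
FPKM of 6 new genes under BF, GF and WF in *P. qamdoensis* (left of each panel) and *P. schneideri* (right), with every library as a point, the mean as a line, the SD of 3 libraries as a bar and *P. qamdoensis* BF replicate 1 as a red cross. newGene_2390 lies below 3 FPKM under GF in both species, newGene_332 and newGene_3701 show opposite BF to WF orders in the species, and newGene_3682 and newGene_1853 share 1 low and 2 high WF libraries in *P. qamdoensis*.

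The interaction nearest to a call was that of newGene_332 for BF against WF. In *P. qamdoensis* it had 6.16, 8.61 and 8.87 FPKM under BF, against 3.20, 0.844 and 2.21 FPKM under WF. *P. schneideri* had 6.95, 4.36 and 6.27 FPKM under BF, against 13.4, 12.9 and 12.5 FPKM under WF. The libraries did not overlap in either species and the order was opposite. The difference of the 2 log2 differences was 2.63 ± 0.489 (SE, limma adjusted p = 0.0705). newGene_2404 had 6.04, 23.0 and 22.8 FPKM under BF, against 2.11, 2.20 and 1.92 FPKM under GF in *P. qamdoensis*, and 1.11, 2.92 and 3.55 FPKM under BF, against 2.51, 2.61 and 1.75 FPKM under GF in *P. schneideri*. Its interaction was 2.34 ± 0.620 with BF replicate 1 (SE, limma adjusted p = 0.277) and 2.92 ± 0.485 without it (SE, limma adjusted p = 0.059). The members of smallest p in the negative direction were newGene_3701 for BF against WF, newGene_1121 for GF against WF (-1.25, limma adjusted p = 1) and newGene_3480 for BF against GF (-0.72, limma adjusted p = 0.38).

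Annotation came from the lists of terms and pathways given for film comparisons with these data. In all, 9 different new genes were found in these lists, 3 of them members. Those lists were chosen on these *P. qamdoensis* libraries. Neither a direction of a list in that species nor its share of small p-values is therefore independent evidence. newGene_1853, ranked 20 among the new genes, is listed under photosynthesis together with 5 Pyun genes. In *P. qamdoensis* it had 32.4, 25 and 15.6 FPKM under BF, 11.6, 27.3 and 9.16 FPKM under GF and 11.9, 117 and 133 FPKM under WF. In *P. schneideri* it had 8.48, 18.5 and 18.1 FPKM under BF, 12.2, 132 and 26.0 FPKM under GF and 87.6, 61.6 and 62.7 FPKM under WF. WF replicate 1 of *P. qamdoensis* was low and GF replicate 2 of *P. schneideri* was high, and both set the overlap.

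The 5 Pyun genes of that list followed the same libraries. Their summed level was 16, 119 and 129 FPKM under WF in *P. qamdoensis*, and 19.6, 139 and 32.1 FPKM under GF in *P. schneideri*. Of the 6 genes, 0 were called for GF against WF in either species by limma. An unadjusted p below 0.05 was found for 2 in *P. qamdoensis*, against 1.95% of all genes, and for 0 in *P. schneideri*, against 12.1%. All 6 had a negative log2 difference in both species, with a median of -1.35 in *P. qamdoensis*, against 0.01 over all genes, and -0.95 in *P. schneideri*, against -0.07 over all genes. newGene_1853 itself had -1.94 ± 0.827 in *P. qamdoensis* (SE, limma adjusted p = 1) and -0.97 ± 0.652 in *P. schneideri* (SE, limma adjusted p = 0.584). The value in *P. schneideri* was 0.34 when libraries were weighted by their quality, so its sign was not stable.

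newGene_1421 and newGene_2930 are listed under amino sugar and nucleotide sugar metabolism, which makes the activated sugars used for cell walls and glycoproteins. Of the 26 genes of that list for BF against GF, 0 were called by limma in *P. qamdoensis*. An unadjusted p below 0.05 was found for 23 of them, against 19% of all genes, as the choice of the list would favor. The log2 difference was positive for 25 and negative for 1, with a median of 1.36, against -0.05 over all genes. The negative one was newGene_1421, with 6.03, 16.8 and 21.1 FPKM under BF, against 37.5, 29.4 and 27.7 FPKM under GF, without overlap (log2 difference -1.20 ± 0.395, SE, limma adjusted p = 0.193). Its lowest BF value is that of BF replicate 1, and without that library the log2 difference was -0.70 ± 0.236 (SE, limma adjusted p = 0.213). newGene_2930 moved with the list, at 1.77 ± 0.267 (SE, limma adjusted p = 0.075). In *P. schneideri* 24 genes of the list were tested, 23 positive and 1 negative, with a median of 0.53, against 0.02 over all genes. Of these 24 genes in *P. schneideri*, 5 had an unadjusted p below 0.05, against 6.49% of all genes. There newGene_1421 had 15.4, 16 and 13.5 FPKM under BF, against 10.8, 10.9 and 18.2 FPKM under GF.

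The other 6 annotated new genes ranked below the limit of 200. newGene_1789, under glycine, serine and threonine metabolism, had 0.435 ± 0.466 FPKM under BF, 0.838 ± 0.0550 FPKM under GF and 0.328 ± 0.0642 FPKM under WF in *P. qamdoensis*, against 5.62 ± 2.14, 5.46 ± 0.430 and 5.35 ± 1.56 FPKM under the same films in *P. schneideri* (SD, n = 3 each), and was called between the species. newGene_1922 (nucleic acid binding), newGene_1602 (plant-pathogen interaction), newGene_2410 (zeatin biosynthesis, a route to cytokinin hormones), newGene_198 (ABC transporters) and newGene_1327 (nucleic acid binding and RNA-DNA hybrid ribonuclease activity) had means of 4.02, 2.57, 1.77, 0.374 and 0.317 FPKM. No tested gene of their lists was called by limma in the film comparison of its list, in either species. The list of RNA-DNA hybrid ribonuclease activity held newGene_1327 alone, which did not pass the filter and was not tested. With an unadjusted p below 0.05 in *P. qamdoensis* there were 6 of 8 tested genes for nucleic acid binding for BF against GF, against 19% of all genes. For BF against WF there were 7 of 9 for ABC transporters, against 17% of all genes. For GF against WF, against 1.95% of all genes, there were 3 of 4 for nucleic acid binding and 2 of 3 for zeatin biosynthesis. In the same comparison there were 10 of 23 for plant-pathogen interaction and 0 of 4 for glycine, serine and threonine metabolism. Each list was chosen on its own comparison in these libraries, so a high share was favored in advance.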

How the data were processed

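Leaf RNA of 18 libraries was sequenced on an Illumina platform. Per the study's methods, the authors filtered the reads and used the *P. yunnanensis* genome as the common reference; the submitters' processing notes name HISAT2 and StringTie, with no version or role, and how new genes were found is not given in the sources used here. The authors deposited FPKM values per gene and library, without pooling replicates. All columns of the table were assigned to samples. FPKM already correct for gene length and library total, so a change in a few abundant genes can shift all others, and the fragments behind each value are not given in the table.

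FPKM were used as deposited, as log2(FPKM + 1); differences on this scale understate the change of low genes. limma 3.58.1 in R 4.3.3 (eBayes with trend, two-sided) was fitted to all 18 libraries, with 1 mean per species and film, for the species difference (*P. qamdoensis* minus *P. schneideri*) and interactions, and to the 9 libraries of a species for films. A gene was tested where its mean over the fitted libraries was 0.5 FPKM or more. The fits were also run on simulated data with independent normal noise and no outlying library. These data differ from that, so the run does not check the results given here. Pyun genes of similar level were compared in 4 classes at the members' quartiles.

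The members and lists were chosen with earlier results of these data known. Named genes were the 10 highest members and the 2 on each side of the limit, the 6 called members of largest difference in each direction without overlap, the members of smallest p in each film comparison and direction (none was called), new genes in the study's term lists, and 4 members listed at 0 in one species. Members named for an outlying library, their number, their spread or a leave-one-out fit were chosen after their values were seen. Alternatives were another pseudocount, filter, scaling, library weighting, trend, block, library set, threshold and number of classes, and each library left out. Tables were handled with Python 3.11.15 and pandas 2.3.3.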

Additional observations from a re-analysis of the deposited data

Results flagged for a closer look

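BF and WF did not overlap in either species, with opposite orders, for 3 of 200 members (1.5%), against 1.04% of all genes and 1.03% of Pyun genes of similar level. The 2 that the rule for named genes had picked follow, and the third was newGene_3126, with an interaction of -0.66 on the log2 scale (limma adjusted p = 0.304). newGene_332 had an interaction of 2.63 on the log2 scale for BF against WF (limma adjusted p = 0.0705), with 3 of 3 BF libraries above all WF libraries in *P. qamdoensis* and 3 of 3 below in *P. schneideri*. newGene_3701 had 27.5, 68.9 and 58.8 FPKM under BF, against 94.5, 70.8 and 97.7 FPKM under WF in *P. qamdoensis*, and 75.3, 94.8 and 81.3 FPKM under BF, against 73.3, 43.4 and 42.5 FPKM under WF in *P. schneideri*. Its interaction was -1.53 (limma adjusted p = 0.202) and -1.13 without *P. qamdoensis* BF replicate 1 (limma adjusted p = 0.215). None of the 3 passed the test of the difference.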

How the results depend on the processing

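The table gives no fragment counts, so no counting error is stated, and 3 libraries a group limit what the film comparisons can show. The count of 47 members called between the species was 37 of 173 with a filter of 5 FPKM, 64 with library weights and 79 at an adjusted p below 0.05 without a fold change; leaving out each library gave 44 to 62, the highest without *P. qamdoensis* BF replicate 1. The median log2 difference of the members was small and changed sign for some settings: without *P. qamdoensis* BF replicate 1 it was 0.01 for BF against WF in *P. qamdoensis*, against -0.20 with it, -0.00192 for BF against GF, against -0.17, and 0.03 between the species, against -0.05. Of the counts of members called, 209 stayed within 1.5 times and 13 moved. These include the film and interaction counts, which were 0 in the main fit and could only stay or rise. The tally therefore says little about the species count. The film counts of 0 became, in *P. qamdoensis*, 1 for GF against WF with library weights and 1 for BF against GF at an adjusted p below 0.05; in *P. schneideri*, 5 with library weights and 1 with only the 6 libraries for BF against WF, 4 with library weights and 2 at an adjusted p below 0.05 for GF against WF, and 1 for BF against GF with library weights. Leaving out each library gave 0 to 3 for BF against WF and 0 to 2 for BF against GF in *P. qamdoensis*, both highest without BF replicate 2, 0 to 1 for GF against WF in *P. schneideri*, where newGene_2390 was called without GF replicate 1 or 3, and 0 to 1 for the interaction of BF against GF, without *P. qamdoensis* BF replicate 2. The members without overlap between the species went from 30 to 49 without *P. qamdoensis* BF replicate 1. newGene_3549 had a species difference of 0.05 on the log2 scale, 0.50 without that library (limma adjusted p = 0.000111), and -0.20 to 0.50 over all libraries left out, with -0.20 without BF replicate 2 and -0.15 without BF replicate 3. newGene_1853 for GF against WF in *P. schneideri* was 0.34 with library weights, against -0.97. The cause was not tested for any of these. The replicate numbers gave no sign of pairing, though these counts cannot exclude it. Of same-numbered pairs, 1 of 9 in each species and 7 of 27 between the species had a correlation of deviations from group means over 0.1. Of pairs with other numbers it was 8 of 18 in *P. qamdoensis*, 5 of 18 in *P. schneideri* and 15 of 54 between the species. The highest correlation was 0.51, between *P. qamdoensis* GF replicate 2 and WF replicate 1. Whether another factor was shared between libraries was not tested. With a replicate block 46 members were called between the species and 0 between films.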
